A study of Mus musculus with 6 samples.

Results

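The genes described here encode 9 cell surface adhesion molecules outside the integrin family: L1cam, Icam1, Vcam1, Pecam1, Adgre5, Adgre1, Selplg, Cd44 and Cd9. They were taken as every probe set of the array whose platform annotation names a single gene symbol that is one of these, which gave 15 of 45101 probe sets and 9 of 18193 genes. A probe set is a group of short oligonucleotides on the array that together read 1 transcript region. The genes were chosen by function with the log2 differences between the genotypes on these arrays already known, those of L1cam and Adgre5 among them, so their differences between genotypes are given as a description, with their error and no p-value. How many of them a fit across all genes called is printed beside the share or number of all genes called, for reference, and is no evidence about them.

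Bone marrow-derived macrophages were compared between vimentin-deficient mice and wild-type littermates, both 17 weeks old on a C57BL/6 background, with 3 biological replicates per genotype and 1 array per replicate. The design text places the study in atherosclerosis, where marrow of vimentin-deficient mice was transplanted into mice lacking the low-density lipoprotein receptor. The macrophages measured here were grown in culture at normal oxygen from marrow of the femur, with supernatant of the CMG14-12 cell line as the source of macrophage colony-stimulating factor, and all 6 cultures shared these conditions. The labels do not give the vimentin allele, or whether replicates came from separate animals or from pooled marrow, so the spread between arrays may be partly technical. Vimentin forms intermediate filaments in the cytoplasm of leukocytes, fibroblasts and endothelial cells.

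Leukocytes enter tissue in steps: selectins on the vessel wall capture them through carbohydrate-bearing ligands, integrins on the leukocyte then bind immunoglobulin-type molecules such as ICAM-1 and VCAM-1, and homophilic contacts through PECAM-1 guide the passage between endothelial cells. Macrophages carry several of these molecules themselves, together with adhesion G protein-coupled receptors such as CD97, the hyaluronan receptor CD44 and tetraspanins such as CD9, which organise adhesion receptors in the membrane. In the arterial wall these molecules are known for the recruitment and retention of monocytes and macrophages.

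RefSeq promoter windows (build GRCm38.p6) matched 4 of the 9 genes, Icam1, L1cam, Cd44 and Cd9. Windows of Icam1 and L1cam are shown because Icam1 is a textbook target of NF-kappaB and interferon-gamma signalling and L1cam is the gene whose genotypes did not overlap. Each is the 250 bases upstream of the annotated start, at chr9:21015690-21015939 on the plus strand for Icam1 and at chrX:73880835-73881084 on the minus strand for L1cam, which has a second annotated start nearby. Capitals mark matches, on either strand, to the motifs searched, which were a kappaB site (GGAAATTCC), a gamma-activated site (TTCNNNGAA), an interferon-stimulated response element, a GC box (GGGCGG) and a TATA box (TATAAA). The kappaB letters were those of the Icam1 site itself, chosen with this window in view.
Icam1: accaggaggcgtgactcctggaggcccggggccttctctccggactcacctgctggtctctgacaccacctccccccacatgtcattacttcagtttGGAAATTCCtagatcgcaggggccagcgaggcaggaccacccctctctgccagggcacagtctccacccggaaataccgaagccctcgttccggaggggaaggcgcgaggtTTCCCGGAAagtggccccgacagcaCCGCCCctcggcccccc
L1cam: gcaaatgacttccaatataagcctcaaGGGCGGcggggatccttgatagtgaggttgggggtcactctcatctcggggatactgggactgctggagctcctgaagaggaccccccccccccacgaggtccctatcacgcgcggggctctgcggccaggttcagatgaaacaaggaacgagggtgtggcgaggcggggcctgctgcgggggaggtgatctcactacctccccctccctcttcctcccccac
The Icam1 window held a kappaB match beginning at base -153, a gamma-activated site match at -42 and a GC box match on the opposite strand at -17, counted from the annotated start. Of 32851 promoter windows of the same length over all genes, 0.286% held the kappaB letters, 7.02% a gamma-activated site match and 32.7% a GC box match. The L1cam window shown held 1 GC box match, at -223, and no match to the other letters, and the window of the second start, at chrX:73880791-73881040, held 1 GC box match, on the opposite strand at -26. These are matches of letters in a window and no binding was measured.

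As a check of the labels, Vim read 8.20, 6.96 and 7.13 on vimentin-deficient replicates 1, 2 and 3 and 13.24 to 13.41 on the wild-type arrays, in log2 units. Of 8 macrophage markers 7 were measured, and all 7 were bright enough to be tested. Among them the lysozyme gene Lyz2 read 13.93 to 14.22 and Cd68 13.60 to 13.78 over the 6 arrays. Vimentin-deficient replicate 3 stood apart: it correlated with the other arrays at 0.975 to 0.979 across probe sets, and the others with each other at 0.992 to 0.998. It was the highest or lowest of the 6 arrays for 57.9% of all 13445 genes tested, a share that lay between 21.5% and 36.4% for each other array. The differences of the adhesion genes are therefore given with and without it.

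Where a gene had several probe sets, the one with the highest mean over the 6 arrays stood for it. A filter at 6.93 log2 units, the 40th percentile of the means of probe sets other than controls, kept 8 of the 9 genes and left out Pecam1. Of these 8, 4 had a higher mean in the vimentin-deficient group, beside 39.6% of all genes tested, and 3 did so without vimentin-deficient replicate 3, beside 44.5%. Their median log2 difference was -0.0047, against -0.02 over all genes tested, and without that array it was -0.07 against -0.01. In the fit across all genes (limma, Benjamini-Hochberg adjusted p below 0.05) 0 of the 8 were called, beside 0.0223% of all genes tested. L1cam alone had genotypes that did not overlap, beside 15.5% of all genes tested, or 5.32% with the vimentin-deficient arrays higher as for L1cam. Without vimentin-deficient replicate 3, L1cam and Adgre5 were called, 2 of the 8, beside 2.34% of all genes tested. The genotype contrast took part in choosing these genes, so nothing is read from these shares.

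**Figure D1:**
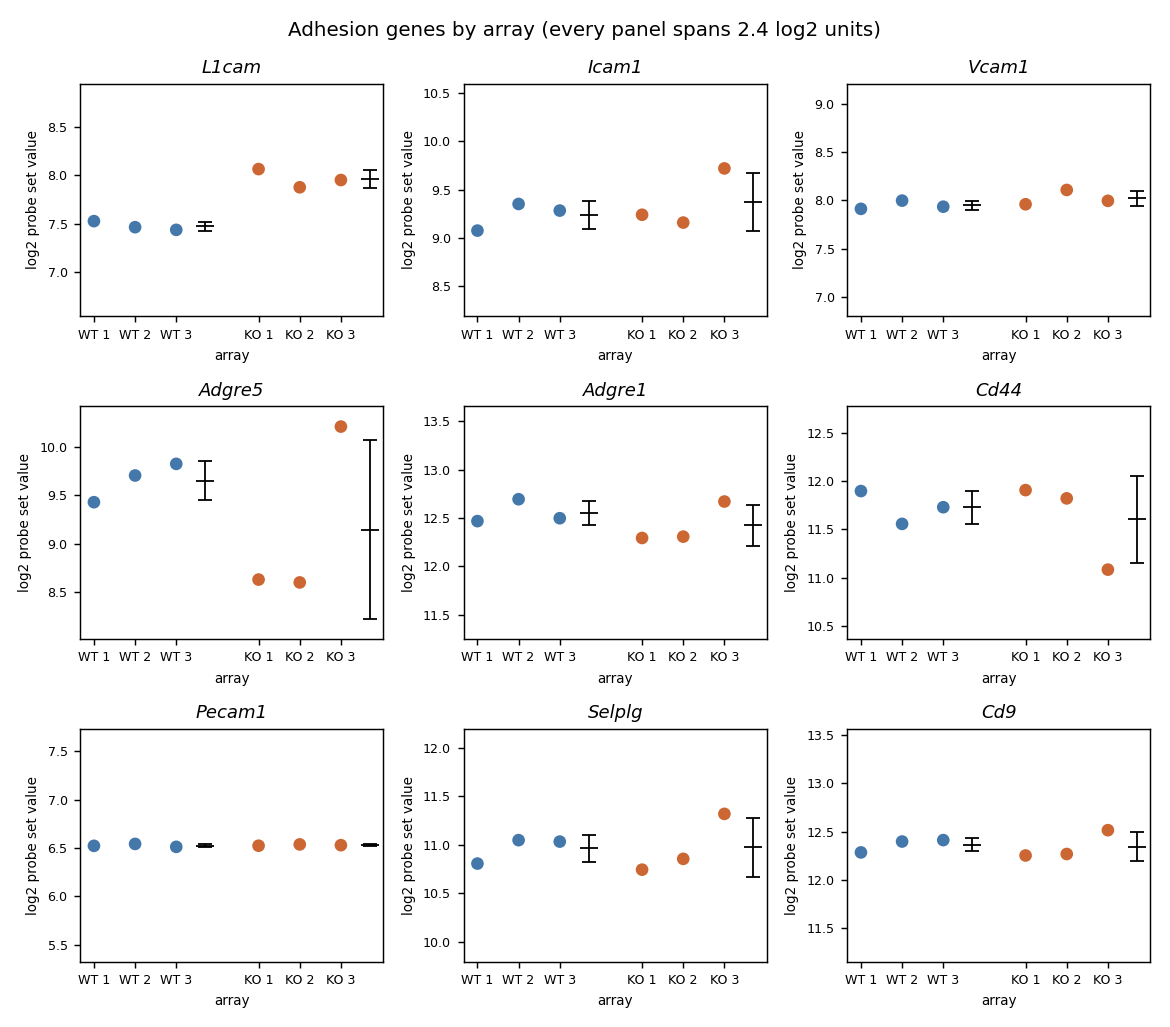
Log2 values of the representative probe set of each of the 9 genes, by array (WT, wild-type, blue; KO, vimentin-deficient, orange); the black bar beside each group is its mean and SD (n = 3). L1cam was higher on each of the 3 vimentin-deficient arrays than on any wild-type array, while for Adgre5 vimentin-deficient replicates 1 and 2 lay below and replicate 3 above all wild-type arrays.

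L1cam encodes a transmembrane protein of the immunoglobulin superfamily that binds itself and integrins and is best known from growing axons, and its cytoplasmic tail binds ankyrins and ezrin-type linkers. Its representative probe set, 1450435_at, read 8.07, 7.88 and 7.95 on vimentin-deficient replicates 1, 2 and 3 and 7.53, 7.47 and 7.44 on wild-type replicates 1, 2 and 3. All 3 vimentin-deficient arrays lay above all wild-type arrays, and replicate 3 lay between the other two. The means were 7.97 ± 0.09 (SD, n = 3) and 7.48 ± 0.05 (SD, n = 3), a log2 difference of 0.49 (SE 0.06, 95% interval 0.34 to 0.64) or 1.40-fold. The difference without vimentin-deficient replicate 3 was also 0.49 (SE 0.07, 95% interval 0.34 to 0.65).

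The other L1cam probe set, 1421958_at, read 7.54, 7.46 and 7.41 against 7.29, 7.34 and 7.30, in the same order of arrays. The genotypes did not overlap there either, but the log2 difference was 0.16, and averaging both probe sets gave 0.32. Both probe sets are dim, and how much background signal the deposited values hold is not known. Their values lay within the span of Vim on the vimentin-deficient arrays, which read 8.20, 6.96 and 7.13. Whether the L1cam values are signal of its transcript was not tested. If they hold background, either difference may be compressed.

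Icam1, the gene of a ligand of the beta2 integrins that is induced by inflammatory signals, read 9.24, 9.16 and 9.72 on the vimentin-deficient arrays and 9.08, 9.35 and 9.28 on the wild-type arrays. Vimentin-deficient replicates 1 and 2 lay within the wild-type range and replicate 3 above it. The means were 9.37 ± 0.30 (SD, n = 3) and 9.24 ± 0.14 (SD, n = 3), and the log2 difference of 0.14 had a 95% interval of -0.25 to 0.52. The sign of this difference depended on that 1 array, since it was -0.04 (95% interval -0.25 to 0.17) without it.

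Vcam1, the gene of the ligand of the alpha4 integrins, has 3 probe sets, and they did not share a sign. The representative one, 1451314_a_at, read 7.960, 8.108 and 7.996 on the vimentin-deficient and 7.913, 7.998 and 7.935 on the wild-type arrays, with overlapping genotypes and a log2 difference of 0.07 (95% interval -0.07 to 0.21). On 1415989_at the log2 difference was -0.05, with values of 7.80 to 7.89 and 7.84 to 7.94, and on 1448162_at it was -0.04. The last of these read 5.87 to 5.97 over all 6 arrays and lay under the filter. The mean of the 3 probe sets differed by -0.01.

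Pecam1, whose protein CD31 joins endothelial cells to each other and is also found on platelets and leukocytes, was under the filter on its only probe set. It read 6.52, 6.54 and 6.53 on the vimentin-deficient and 6.52, 6.54 and 6.51 on the wild-type arrays, a range of 0.03 within the wild-type group. At this brightness a difference in Pecam1 may not be detectable. Of 8 endothelial marker genes, 4 passed the filter, and 1 of these 4 had a higher mean, beside 39.6% of all genes tested. Vwf was at 9.22, 9.01 and 8.06 on the vimentin-deficient and 9.17 to 9.62 on the wild-type arrays. Egfl7 differed less, at 8.54, 8.57 and 8.38 against 8.57 to 8.66. In bulk RNA, fewer cells of a type and less RNA per cell cannot be told apart.

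**Figure D2:**
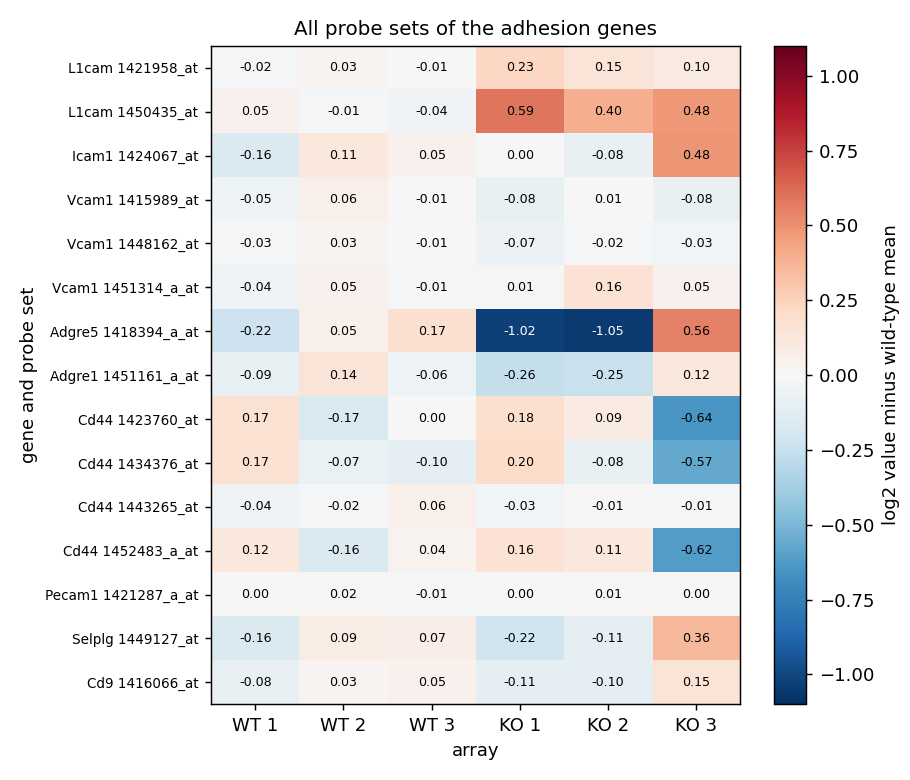
Each of the 15 probe sets (rows) on each array (columns; WT, wild-type; KO, vimentin-deficient), as the log2 value minus the wild-type mean, with the value printed in the cell. The 3 bright Cd44 probe sets are 0.57 to 0.64 below the wild-type mean on vimentin-deficient replicate 3, and Adgre5 is 1.02 and 1.05 below it on replicates 1 and 2 and 0.56 above it on replicate 3.

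Adgre5 encodes CD97, an adhesion G protein-coupled receptor of leukocytes that binds CD55 on neighbouring cells. It read 8.63, 8.60 and 10.21 on vimentin-deficient replicates 1, 2 and 3 and 9.43, 9.70 and 9.82 on the wild-type arrays. Replicates 1 and 2 differed from each other by 0.03 and lay below every wild-type array, whereas replicate 3 was the highest of the 6. Of all genes tested, 8.07% had vimentin-deficient replicates 1 and 2 on 1 side of all wild-type arrays and replicate 3 on the other. The log2 difference was -0.51 (SE 0.42, 95% interval -1.51 to 0.49) with 6 arrays and -1.04 (SE 0.11, 95% interval -1.28 to -0.79), or 2.05-fold lower, without replicate 3. Replicate 3 was 1.60 log2 units, or 3.02-fold, above the mean of replicates 1 and 2, while the wild-type range was 0.40.

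Adgre1, of the same receptor family, encodes the surface antigen by which mouse macrophages are commonly identified. It read 12.29, 12.31 and 12.67 on the vimentin-deficient arrays and 12.47, 12.69 and 12.50 on the wild-type arrays. Replicates 1 and 2 again lay below all wild-type arrays and replicate 3 lay within their range. The log2 difference was -0.13 (95% interval -0.42 to 0.16), and -0.25 (SE 0.08, 95% interval -0.43 to -0.08) without replicate 3. Over all genes tested, 17.3% had vimentin-deficient replicates 1 and 2 below all wild-type arrays.

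Selplg encodes PSGL-1, the mucin-like ligand of P-selectin on leukocytes. It read 10.74, 10.86 and 11.32 on the vimentin-deficient and 10.81, 11.05 and 11.03 on the wild-type arrays, so that replicate 3 was the highest of the 6 and the other two overlapped the wild-type arrays. The log2 difference was 0.01 (95% interval -0.37 to 0.39) with 6 arrays and -0.16 (95% interval -0.37 to 0.05) without replicate 3, a change of sign. It was also below 0 without wild-type replicate 1, at -0.07.

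Cd44, the hyaluronan receptor gene, whose product is linked to the cytoskeleton by ezrin, radixin and moesin, lies on chromosome 2, as Vim does. Its representative probe set, 1423760_at, read 11.91, 11.82 and 11.09 on the vimentin-deficient and 11.90, 11.56 and 11.73 on the wild-type arrays. Replicate 3 was the lowest of the 6 arrays and the others overlapped. The log2 difference was -0.12 (SE 0.22, 95% interval -0.65 to 0.40) with 6 arrays and 0.14 (95% interval -0.08 to 0.35) without replicate 3.

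Of the 3 other Cd44 probe sets, 1434376_at and 1452483_a_at were also lowest on that array. They read 11.14 and 9.89 there, which lay 0.63 and 0.75 log2 units below the mean of replicates 1 and 2, while 1423760_at was 0.78 below it. The fourth, 1443265_at, read 6.26 to 6.36 on all arrays, under the filter, and was flat.

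Cd9 encodes a tetraspanin that associates with integrins and restrains cell fusion in macrophages. It read 12.25, 12.27 and 12.52 on the vimentin-deficient and 12.29, 12.40 and 12.41 on the wild-type arrays. Replicates 1 and 2 lay below all wild-type arrays and replicate 3 above all of them. The log2 difference was -0.02 (95% interval -0.23 to 0.19) with 6 arrays and -0.10 (SE 0.07, 95% interval -0.26 to 0.05) without replicate 3. Leaving out vimentin-deficient replicate 1 or 2 gave 0.03 and 0.02, so the sign of this small difference was not stable.

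**Figure D3:**
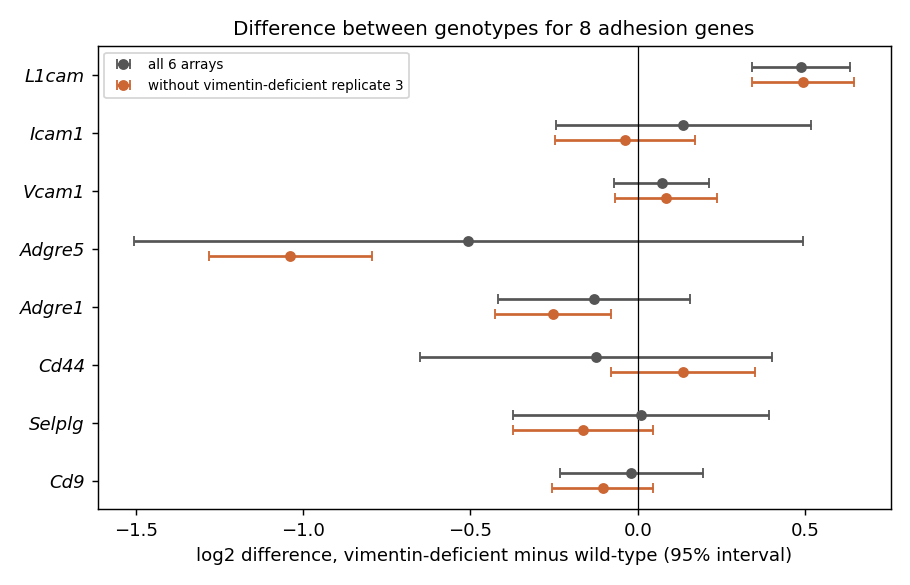
Log2 difference between the genotypes with its 95% interval from limma for the 8 genes above the filter, with all 6 arrays (grey) and without vimentin-deficient replicate 3 (orange). The interval of L1cam is 0.34 to 0.64 with 6 arrays, while that of Adgre5 narrows from between -1.51 and 0.49 to between -1.28 and -0.79.

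On vimentin-deficient replicate 3, Adgre5, Selplg, Cd9 and Icam1 had the highest value of the 6 arrays and Cd44 the lowest, which made 5 of 8 genes tested at an extreme on that array, beside 57.9% of all genes. Of the 8 genes, 4 lay over 0.5 log2 units from the mean of replicates 1 and 2 on that array (Adgre5, Cd44, Selplg and Icam1), beside 10.6% of all genes. Selplg and Icam1, each 0.52 above that mean, were just past this cut. The share over all genes was not matched for brightness, so nothing is read from the count on that array. L1cam, Vcam1 and Adgre1 lay within the range of the other 5 arrays there.

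Marker genes of cell types had shifted values on the same array. The mean over the 7 measured macrophage markers was 12.32 log2 units on vimentin-deficient replicate 3 and 11.83 to 11.99 on the wild-type arrays, and the mean over 6 osteoclast markers was 7.27 there against 6.95 to 7.01. In the macrophage list Cd68 read 13.60 on that array against 13.68 to 13.78, the lowest of the 6 arrays, and Lyz2 14.22 against 14.05 to 14.12. In the osteoclast list Ctsk read 9.01 on that array against 7.37 to 7.72, and Acp5 7.94 against 7.54 to 7.77. A list mean, here and below, therefore does not show a like shift of every marker in the list. The megakaryocyte and platelet list, 6 genes led by the platelet factor gene Pf4, was at 7.34 there against 7.83 to 7.92. In it Pf4 was at 8.45 on that array against 10.80 to 11.31, and Itga2b at 7.53 against 7.74 to 7.75. The mean over 8 endothelial markers was 7.20 there against 7.40 to 7.46. The part of these shifts in the values of the adhesion genes was not tested. With 6 arrays no marker in these lists, or in those of stromal, endothelial, B, T, granulocyte, erythroid and dendritic cells, passed the threshold. Without replicate 3, Cd14 in the macrophage list (log2 difference 0.59, limma adjusted p = 0.00201) and Kdr in the endothelial list (0.33, limma adjusted p = 0.0424) rose, both named after their values were seen.

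Genes with the most similar profile were sought for the 2 adhesion genes whose SD over the 6 arrays was above 0.3, by the root mean square distance between log2 values centred on each gene's own mean. For Adgre5 these were Daglb (distance 0.156), Clec7a (0.159) and Mfge8 (0.166). Daglb read 9.12, 9.22 and 10.35 on the vimentin-deficient and 9.80, 10.07 and 10.07 on the wild-type arrays. For Cd44 they were Tagln2 (distance 0.0141), Tedc1 (0.0236) and Prps1 (0.0314), and Tagln2 read 11.63, 11.52 and 10.82 on the vimentin-deficient and 11.61, 11.25 and 11.45 on the wild-type arrays. The distances rest on 6 arrays, 1 of which stands apart, and are a description.

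Other genes of adhesion biology were taken from 8 lists with 125 genes, of which 89 were tested. With 6 arrays 0 rose and 0 fell (limma, adjusted p below 0.05, beside 0.0223% of all genes tested) and their median log2 difference was -0.02, beside -0.02 over all genes. Over all genes, 1072 had an unadjusted limma p under 0.05. A higher mean was found for 39.6% of all genes tested with 6 arrays and for 44.5% without vimentin-deficient replicate 3. The counts of higher and lower means of each list below stand beside these shares. Without vimentin-deficient replicate 3, 3 rose and 3 fell, beside 1.31% and 1.03% of all genes tested, while 44 of the 89 had a higher mean and 45 a lower one. Those that rose were the selectin ligand genes Cd24a and Spn and the junctional adhesion molecule gene F11r, and those that fell were the tetraspanin genes Tspan3 and Tspan13 and the hyaluronan scavenger receptor gene Stab2. Spn and Tspan13 were named after their values were seen. The 8 lists were chosen with earlier results of these data known, and replicate 3 was left out because its values stood apart. Adjusted p-values printed below for genes of these lists are therefore a description.

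Among selectins, selectin ligands and the enzymes that modify them, 9 of 11 tested genes had a higher mean, with a median of 0.04, and 8 of 11 without vimentin-deficient replicate 3, with a median of 0.08. Cd24a, which encodes a heavily glycosylated surface protein that P-selectin can bind, read 8.65, 8.21 and 8.30 on the vimentin-deficient and 6.78, 7.21 and 7.28 on the wild-type arrays. Its genotypes did not overlap. The log2 difference was 1.30 (SE 0.16, 2.45-fold, limma adjusted p = 0.138) with 6 arrays and 1.34 (SE 0.15, limma adjusted p = 0.00106) without vimentin-deficient replicate 3.

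Tpst1, a sulfotransferase gene whose product modifies tyrosines of proteins such as PSGL-1, had a log2 difference of 0.32 (SE 0.08, limma adjusted p = 0.374), with no overlap between genotypes. The sialyltransferase gene St3gal4 had -0.18 (SE 0.08, limma adjusted p = 0.645). Spn, the leukosialin gene, read 8.56, 8.36 and 7.79 on the vimentin-deficient and 7.89 to 7.97 on the wild-type arrays, so its higher values were those of replicates 1 and 2. Its log2 difference was 0.31 with 6 arrays and 0.53 (SE 0.08, limma adjusted p = 0.00383) without replicate 3.

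Of the immunoglobulin superfamily genes tested, 11 of 22 had a higher mean, with a median of -0.01. Without vimentin-deficient replicate 3 the sign of the median turned, to 0.03, with 13 of 22 higher. F11r, which encodes the junctional adhesion molecule JAM-A, read 8.28, 8.24 and 8.45 on the vimentin-deficient and 7.84, 8.03 and 7.95 on the wild-type arrays, without overlap. Its log2 difference was 0.38 (SE 0.08, limma adjusted p = 0.276) with 6 arrays and 0.32 (SE 0.07, limma adjusted p = 0.0457) without replicate 3. Cd99l2 had a log2 difference of -0.20 (SE 0.07) and Nectin4 0.12 (SE 0.04), also without overlap and with limma adjusted p of 0.532 and 0.536.

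Of the tetraspanins and their partners, 14 of 18 tested genes had a lower mean, with a median of -0.11, and 5 had genotypes that did not overlap, beside 15.5% of all genes. Tspan3 read 9.93, 9.93 and 10.11 on the vimentin-deficient and 10.44, 10.31 and 10.39 on the wild-type arrays. Its log2 difference was -0.39 (SE 0.09, limma adjusted p = 0.322) with 6 arrays and -0.45 (SE 0.08, limma adjusted p = 0.0176) without replicate 3. Tspan17 had -0.42 (SE 0.11, limma adjusted p = 0.402) and Tspan14 -0.22 (SE 0.07, limma adjusted p = 0.536). Tspan13 had -0.26 with 6 arrays and -0.38 (SE 0.09, limma adjusted p = 0.0494) without replicate 3, and replicate 3 read 10.22, inside the wild-type range of 10.14 to 10.29.

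**Figure D4:**
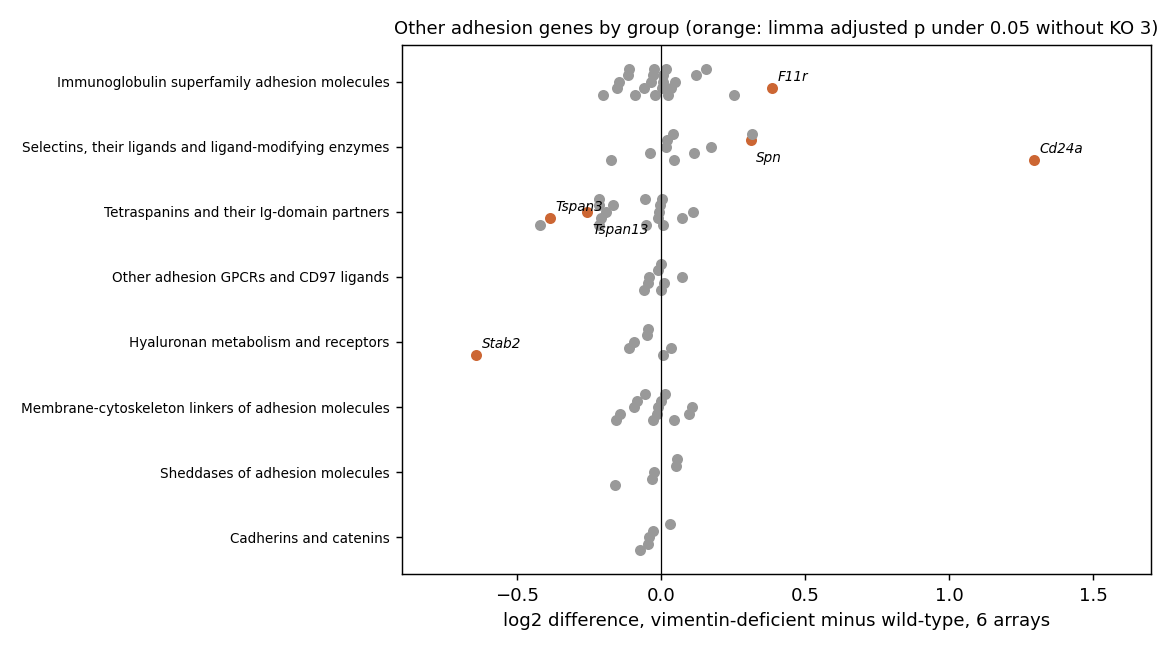
Log2 difference between the genotypes with 6 arrays for the 89 tested genes of 8 adhesion lists, 1 point per gene and list; the vertical spread of points within a list has no meaning. Orange points, with their names, are the 6 genes past the threshold without vimentin-deficient replicate 3 (KO 3); with 6 arrays 0 passed.

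No gene of the 4 lists on hyaluronan, linkers, sheddases and cadherins, or of the list on adhesion G protein-coupled receptors, passed the threshold with 6 arrays. Of 7 tested genes of hyaluronan metabolism and hyaluronan receptors, 5 had a lower mean, among them Stab2, an endocytic hyaluronan receptor, which read 6.82, 6.92 and 7.26 on the vimentin-deficient and 7.74, 7.49 and 7.68 on the wild-type arrays without overlap. Its log2 difference was -0.64 (SE 0.12, limma adjusted p = 0.249), and -0.77 (SE 0.08, limma adjusted p = 0.000442) without replicate 3. In the same list Vcan, which encodes a hyaluronan-binding proteoglycan, had -0.11, and Hyal2, a hyaluronidase gene, -0.10.

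Of the 13 genes that link adhesion molecules to the cytoskeleton, 9 had a lower and 4 a higher mean with 6 arrays. Without vimentin-deficient replicate 3, 6 had a lower and 7 a higher one. Higher means made 39.6% and 44.5% of all genes tested. The median log2 difference of the list was -0.015 and 0.00045, so no direction is read from these counts. The talin gene Tln1 had a log2 difference of -0.14 (SE 0.09) and the moesin gene Msn 0.11 (SE 0.08), and without replicate 3 they had -0.11 and 0.12. The radixin gene Rdx had -0.16 (SE 0.13), and -0.03 without it. Of 8 other adhesion G protein-coupled receptor and CD97 ligand genes tested, 5 had a lower mean and 0 had genotypes that did not overlap, beside 15.5% of all genes tested, and those with the smallest p, Adgrg1, Adgrb1 and Adgra3, had log2 differences of 0.07, -0.06 and -0.04. Of 5 sheddase genes, which encode proteases that release adhesion molecules from the surface, Bace1 had -0.16 (SE 0.06, limma adjusted p = 0.593), Adam10 0.05 and Mmp14 -0.02, the last at 0.0037 without vimentin-deficient replicate 3. Of 5 cadherin and catenin genes, Cdh11 had -0.07, Ctnnd1 -0.05 and Jup -0.04, the last at 0.0057 without that array.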

How the data were processed

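RNA of 6 macrophage cultures was measured on Affymetrix mouse arrays from biotin-labelled cRNA, per the labels' protocols. The authors deposited log2 values per probe set, and the way these were summarised and normalized is not stated in the labels. They run from 5.43 to 14.50 with array medians of 7.23 to 7.25, and were used as deposited. Of 45101 probe sets, 64 were controls, 34945 named 1 gene symbol, 932 several and 9160 none. Symbols were updated through Entrez ID for 34741 probe sets with a mouse gene table (assembly GRCm38.p6).

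The probe set with the highest mean stood for each gene. Genes at or above the 40th percentile, 6.93, were tested, 13445 of 18193, with limma 3.58.1 in R 4.3.3 (lmFit, eBayes with trend, adjusted p by Benjamini-Hochberg over all genes tested, threshold 0.05). The fit was tested on simulated data. SEs and 95% intervals are limma's, SDs are between arrays, and 3 arrays per genotype limit the precision. The adhesion genes, the 8 adhesion lists, the 10 lists of cell type markers and the rules were chosen with earlier results of these data known. Named were all 9 genes, the 3 smallest p of each adhesion list with any past the threshold, the brightest markers and the nearest profiles. Of 125 listed genes 119 were measured and 89 tested. Alternatives covered normalization, filter, probe set rule, variance model, array weights, the replicate block and each array left out.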

Additional observations from a re-analysis of the deposited data

How the results depend on the processing

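With 6 arrays 3 of all genes tested, 0 of the 8 adhesion genes tested and 0 of the other adhesion genes passed the threshold in limma. Counts for the 8 adhesion genes are given for completeness, since their differences were known when they were chosen. Array quality weights gave vimentin-deficient replicate 3 a weight of 0.226 and called 93 of the 13445 genes tested. Among these were 1 of the 8 adhesion genes and 3 of the 89 other adhesion genes tested, Tspan3, Cd24a and Stab2. Testing every probe set separately called 5 probe sets. In the 6 fits without 1 array the counts ran from 0 to 315 of the 13445 genes tested. They ran from 0 to 2 of the 8 adhesion genes and from 0 to 6 of the 89 other adhesion genes. The highest of these counts were without vimentin-deficient replicate 3, where 2.34% of all genes tested were called. Without vimentin-deficient replicate 2 the count for all genes was 1, and it was 0 without any single wild-type array. Vim, with a log2 difference of -5.89 over the 6 arrays, was thus not called without a wild-type array either. A count of 0 there therefore does not show a lack of difference. Over the 6 fits without 1 array the log2 difference of L1cam ran from 0.44 to 0.53 and that of Adgre5 from -1.04 to -0.23. The sign of the difference was that of the 6 arrays in 6 of these 6 fits for L1cam, Vcam1, Adgre5 and Adgre1, in 5 for Icam1, Cd44 and Pecam1, in 4 for Selplg and in 3 for Cd9.

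With the replicate number as a block, 0 genes were called, and 0 of the adhesion genes. Vim was not called in that fit either, so this count does not show a lack of difference. Deviations of same-numbered arrays from their group means correlated at 0.392, -0.107 and 0.0261, and 3 of 6 arrays correlated best with their own number. With 3 arrays per genotype, 1 of which stands apart and moves its group mean, these values cannot tell whether same-numbered arrays share a batch. The labels name none. Signal near background limits Pecam1, Vcam1 and L1cam.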
